A study of Mus musculus with 8 samples.

Results

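The narrower 5-hydroxymethylcytosine (5-hmC) regions shared by all libraries were stretches of the mouse genome in which every hMeDIP-seq peak list of the series held a peak, but in which at least 1 list had less than 400 bp of peak. Peaks of the 4 lists that shared at least 1 bp were merged, and a merged region on chromosomes 1 to 19 was kept when it met both conditions. This gave 295511 regions, 11.4% of the 2588824 merged regions of the series and 95.5% of the 309563 regions on these chromosomes that all 4 lists shared. The other 14052 shared regions held at least 400 bp of peak in each list and are called broad shared regions here. The presence and the width of peaks in all 4 lists therefore chose the regions, so these values are given as a description without a test.

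The series compared pro-B cells, the B-cell progenitors that rearrange the immunoglobulin heavy chain gene, sorted as B220+CD43+IgM- cells from the bone marrow of C57BL/6 mice of 4 to 6 weeks. Control pro-B cells, labelled wild-type, gave 2 libraries. The study's methods describe the control mice as Hdac7 +/- littermates. HDAC7-deficient cells (Hdac7 fl/-) gave 2 libraries, and in these mice the floxed allele was deleted by a Cre recombinase knocked into the B-lineage gene Cd79a (mb1-Cre), so that deletion is limited to cells that express this gene. Genomic DNA was sheared to about 350 bp and precipitated with an antibody to 5-hmC, and the 4 matching input libraries were not analysed here. The sources used here do not say which animals or pools lie behind a replicate number. The lists give positions of peaks only, so depth is unknown, and neither the cell type nor the deletion could be checked from them.

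5-hmC is the first product of the oxidation of 5-methylcytosine by the TET enzymes TET1, TET2 and TET3, and in differentiated cells it lies mostly at CpG dinucleotides, in gene bodies and at distal regulatory elements. HDAC7 is a class IIa histone deacetylase that is recruited by MEF2 factors and represses genes of other lineages in B-cell progenitors. In hMeDIP an antibody pulls down whole DNA fragments, so a peak marks the fragments' surroundings and not a single base.

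The sequences below show the kinds of DNA under the peaks of all 4 libraries, which the results on sequence content turn on. Each is the core of a region, its longest unbroken stretch under a peak of every list, read from the plus strand of GRCm38 (mm10). The first line is the region with the most CpG among cores of 100 to 300 bp that lay outside untranslated exons, with CpG in capitals. It held 26 CpG in 241 bp and is intergenic.
chr12:18390877-18391117: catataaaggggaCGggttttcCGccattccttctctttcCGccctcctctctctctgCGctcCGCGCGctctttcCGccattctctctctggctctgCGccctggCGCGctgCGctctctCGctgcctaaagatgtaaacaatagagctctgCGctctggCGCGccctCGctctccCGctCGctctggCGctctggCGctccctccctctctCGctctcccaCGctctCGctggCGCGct
The next line is a region from among the first 3 of the genome, by chromosome and position, with a core of at least 200 bp and no CpG in it. It is intergenic, and capitals mark a run of at least 15 purines.
chr1:3122046-3122263: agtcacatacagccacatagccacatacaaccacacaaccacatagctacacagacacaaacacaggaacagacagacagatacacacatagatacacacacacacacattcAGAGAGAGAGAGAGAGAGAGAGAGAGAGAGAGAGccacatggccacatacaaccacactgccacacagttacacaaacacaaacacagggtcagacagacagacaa
The following lines show 2 of the 4 regions with the longest purine tract in a core of 100 to 200 bp, chosen after the values had been seen. Capitals mark runs of at least 15 purines. The first is intergenic, and the second lies in an intron of Atxn7l1.
chr3:111437851-111438042: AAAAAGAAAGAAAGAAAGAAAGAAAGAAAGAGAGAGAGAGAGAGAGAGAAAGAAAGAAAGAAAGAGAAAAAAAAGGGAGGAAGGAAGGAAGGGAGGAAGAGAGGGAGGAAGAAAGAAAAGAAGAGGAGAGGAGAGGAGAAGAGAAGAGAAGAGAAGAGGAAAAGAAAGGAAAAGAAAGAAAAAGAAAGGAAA
chr12:33285077-33285266: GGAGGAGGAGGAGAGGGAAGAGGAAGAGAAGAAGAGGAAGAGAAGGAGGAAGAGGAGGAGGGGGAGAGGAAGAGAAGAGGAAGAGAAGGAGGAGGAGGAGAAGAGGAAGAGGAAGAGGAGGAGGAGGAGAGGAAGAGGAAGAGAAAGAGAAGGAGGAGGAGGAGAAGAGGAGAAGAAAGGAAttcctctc
The last line is the region with the longest CA repeat in its core, 44 bases on the plus strand as GT, in capitals, and it is intergenic.
chr3:146396754-146396898: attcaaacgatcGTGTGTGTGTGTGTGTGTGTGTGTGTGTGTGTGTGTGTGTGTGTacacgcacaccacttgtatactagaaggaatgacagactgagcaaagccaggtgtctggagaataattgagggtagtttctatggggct

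HDAC7-deficient library 2 stood apart from the other lists in where its peaks lay. It had 523 peaks per Mb on chromosomes 1 to 13 and 580 on chromosomes 14 to 19, while the other 3 lists had nearly the same density on both. It also held 86431 peaks on the X chromosome against 49061 to 61869 in the others, and 20 on the Y chromosome against 585 to 868. Values without it are given beside the results whose direction it changed.

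In the region on chromosome 3 whose core is a purine tract along all of its 192 bases, the summed peak widths were 338 and 321 bp in the wild-type pair (libraries 1 and 2 in this order) and 329 and 192 bp in the HDAC7-deficient pair (likewise). The tract in the intron of Atxn7l1 measured 182 of 190 bases and carried 319 and 368 bp of peak in the wild-type pair and 325 and 603 bp in the HDAC7-deficient pair. The CpG-dense region on chromosome 12 carried 421, 577, 380 and 241 bp in the same order. The region without CpG shown above carried 413, 348, 350 and 299 bp. Widths in the CpG-dense region spanned those in the region without CpG, so these examples did not separate by width.

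The width of peaks in the narrower shared regions differed between libraries more with the replicate number than with the genotype (plot of width by library). The median summed width was 254 bp in wild-type library 1 and 292 bp in wild-type library 2, and it was 236 bp in HDAC7-deficient library 1 and 285 bp in HDAC7-deficient library 2. The values of the genotypes overlapped, and both libraries numbered 2 lay above both libraries numbered 1. The lower and upper quartiles were 180 and 340 bp in wild-type library 1 and 191 and 401 bp in wild-type library 2. They were 163 and 322 bp in HDAC7-deficient library 1 and 187 and 391 bp in HDAC7-deficient library 2. HDAC7-deficient library 1 was the sole narrowest list in 30.7% of the regions, against 24.0% and 22.3% for wild-type libraries 1 and 2 and 22.6% for HDAC7-deficient library 2. These regions held 29.1%, 27.2%, 27.9% and 28.8% of the peaks on chromosomes 1 to 19 of the 4 lists in the order wild-type 1, wild-type 2, HDAC7-deficient 1 and HDAC7-deficient 2.

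**Figure D1:**
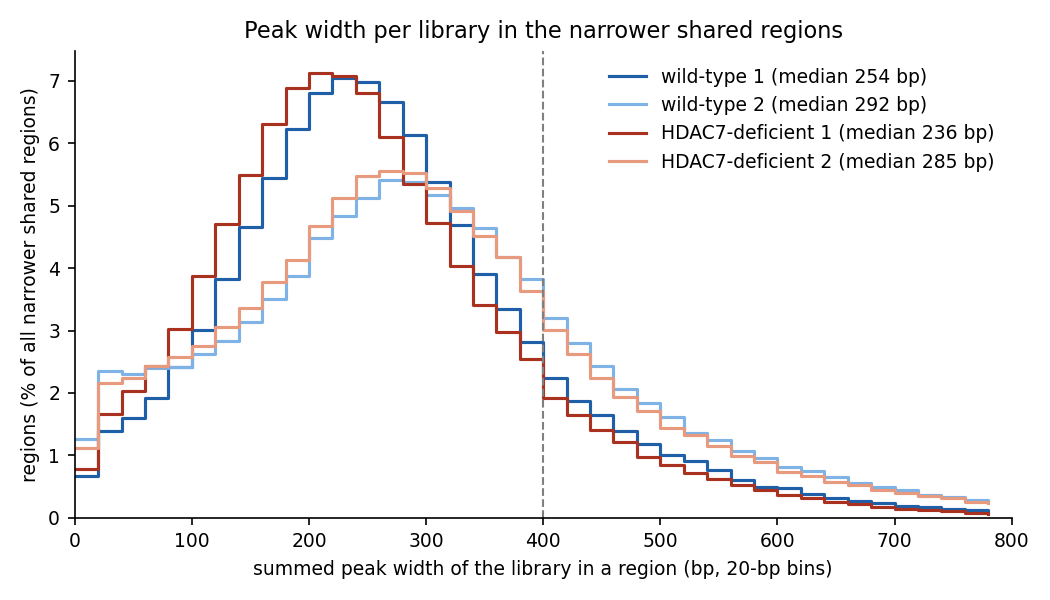
Share of the narrower shared regions (y axis, %) by the summed peak width of each library in the region (x axis, bp, in 20-bp bins up to 800 bp); each line is 1 library and the dashed line marks the limit of 400 bp. The lines of the 2 libraries numbered 1 peak near 200 to 260 bp and those of the 2 libraries numbered 2 are flatter and lie further right.

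In 158500 regions (53.6%) all 4 lists stayed under 400 bp, and in 24554 regions (8.31%) only 1 list did. The smallest list of a region had a median of 145 bp and the largest a median of 386 bp, and the median ratio between them was 2.70. A region measured 439 bp from end to end in the median, from 56 to 4409 bp. Together the regions covered 143190875 bp, 5.98% of the known bases of chromosomes 1 to 19, and of these bases 19.7% lay under a peak of every list and 28.5% under a peak of a single list. A core was present in 241640 regions (81.8%), with a median width of 101 bp and a highest of 399 bp. In the remaining 53871 regions (18.2%) the lists were joined only through overlaps of some of them, and no base lay under all 4. Exactly 1 peak in each list was found in 146236 regions (49.5%).

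The limit of 400 bp did not fall at a gap in the data. There were 129 regions whose smallest list had 399 bp and 137 regions whose smallest list had 400 bp. The first region just inside the limit, chr1:40261661-40262328 in an intron of Il1r1, carried 593 and 653 bp in the wild-type pair and 454 and 399 bp in the HDAC7-deficient pair. The first just outside, chr1:3941832-3942369 in an intron of a long non-coding RNA gene, carried 408, 456, 400 and 491 bp. The widest cores, chosen as the top 3, measured 399, 399 and 398 bp, and the region on chromosome 4 among them, chr4:92358167-92358881, carried 399, 689, 592 and 444 bp.

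Widths of the same region were only loosely related between libraries. Across the 295511 regions Spearman's rho was 0.345 between wild-type library 1 and HDAC7-deficient library 1, and 0.193 to 0.245 for the other 5 pairs of libraries. The lowest value belonged to the 2 wild-type libraries. These correlations are a description across regions, which share libraries and were chosen on these widths.

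The narrower shared regions were not rich in CpG. In a window of 200 bp at the region's centre, placed at the middle of the longest stretch under the most lists, they held 1.61 CpG on average, against 1.69 in all 11979192 windows of that size tiled over chromosomes 1 to 19. No CpG was present in 31.0% of these windows, against 30.0% of all windows, and 0.926% met a CpG-island-like criterion (at least 50% GC and an observed to expected CpG ratio over 0.6), against 1.01%. Over their whole length 32894 regions (11.1%) held no CpG, and the median region held 3. Among the regions with a core of at least 200 bp, 29.4% had no CpG in it. The GC content of the windows was 44.1%, against 41.9% in all windows.

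CpG density under the peaks did not differ between genotypes beyond the spread of the libraries. Peak bases in these regions held 0.815 CpG per 100 bp in wild-type library 1, 0.809 in wild-type library 2, 0.815 in HDAC7-deficient library 1 and 0.803 in HDAC7-deficient library 2, and all known bases of the chromosomes held 0.851. The difference, HDAC7-deficient minus wild-type, was -0.00356 CpG per 100 bp (two-sided exact permutation test, p = 0.667, n = 2 against 2). With 2 libraries against 2 the smallest p this test allows is 0.333, so no difference could have passed 0.05. Without HDAC7-deficient library 2 the difference was 0.00362, of the opposite sign. Against the broad shared regions CpG density was lower in all 4 libraries, with differences of -0.0483 to -0.0404 and a mean of -0.0447 CpG per 100 bp (two-sided exact sign-flip permutation test over the 4 libraries, p = 0.125, the smallest this design allows). The mean was -0.0152 without wild-type library 1, -0.0277 without wild-type library 2 and -0.0238 with a limit of 300 bp. The 4 libraries share the regions, so the 4 differences are not independent. Peak width split the 2 classes, and no comparison at equal peak width was made. In centre windows of equal size the narrower shared regions held 1.61 CpG and the broad ones 1.65. No CpG was present in 31.0% and 31.8% of these windows. Against regions with a peak in 3 lists the difference was 0.00831 CpG per 100 bp and had both signs among the libraries, higher in 3 and lower in wild-type library 2 (exact sign-flip permutation test, p = 0.5). In centre windows the order was the reverse, with 1.61 CpG in the narrower shared regions and 1.64 in regions with a peak in 3 lists. No CpG was present in 31.0% and 30.4% of these windows. With any 1 library left out, regions in all remaining lists were set against regions in all but 1 of them. That difference, between other classes of region, was negative, from -0.0469 to -0.00462.

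Long runs of purines on 1 strand were common in these regions. Of the 2080 6-base words counted together with their reverse complements, 64 consist of A and G alone on 1 strand, and 35 of the 40 words most over-represented in the centre windows were of this kind. The all-purine words occurred at a median of 2.02 times their frequency on chromosomes 1 to 19, from 0.957 to 2.66, and 63 of 64 lay above 1. The other 2016 words had a median of 0.873 and 504 of them lay above 1. AGGGGA led with 2.66 times, followed by CCCTCC with 2.62 times and CCCCTC with 2.57 times. The lowest words in the narrower shared regions were GTACTA with 0.500, TATATA with 0.529 and ATATAT with 0.544 times, and the 604 words with a CpG had a median of 0.903. These words led to the count of purine tracts below, which was chosen after these values had been seen and carries no test.

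A purine tract, here at least 15 bases of an unbroken run of 15 or more purines or pyrimidines, was present in the centre window of 117074 regions, 39.6% of them, against 12.6% of all windows of that size. The share was 36.1% in the broad shared regions, 34.5% in regions with a peak in 3 lists, 27.2% with a peak in 2 lists and 17.0% with a peak in 1 list. Tracts took up 10.2% of the bases in the 50 bp on either side of the centre and 2.14% of the bases about 1975 bp away, against 2.07% of all known bases (plot of content around the centre). Of the 241640 cores, 29.7% held a tract, and the longest tract in a core measured 272 bases.

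**Figure D2:**
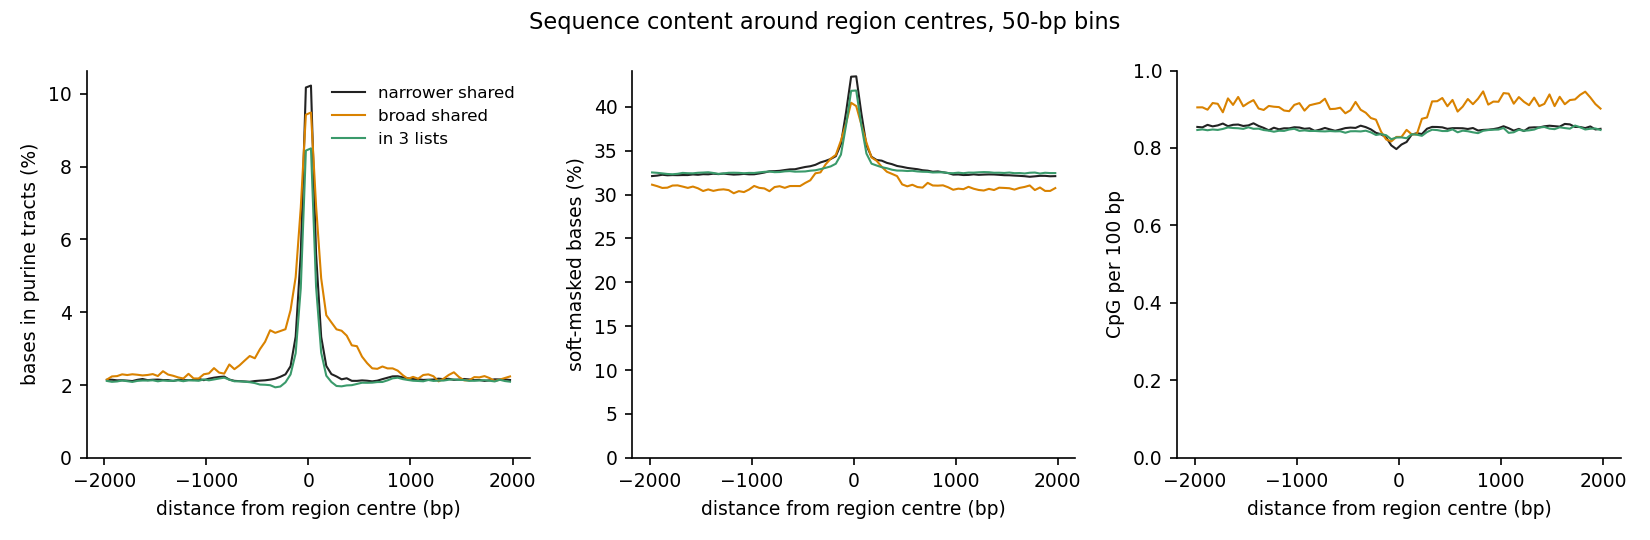
Share of bases in purine tracts (left, %), share of soft-masked bases (middle, %) and CpG per 100 bp (right) by distance from the region's centre (x axis, bp, 50-bp bins) for narrower shared regions, broad shared regions and regions with a peak in 3 lists. Purine tracts rise to 10.2% at the centre of the narrower shared regions and 9.49% at that of the broad ones, and CpG density dips at the centre of both.

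Under the peaks of these regions, tracts took up 7.42% of the bases in wild-type library 1, 5.45% in wild-type library 2, 7.17% in HDAC7-deficient library 1 and 5.61% in HDAC7-deficient library 2. The 2 genotypes overlapped, and the libraries numbered 1 lay above those numbered 2. The difference, HDAC7-deficient minus wild-type, was -0.0497 percentage points, and its sign hung on single libraries. It was 0.915 without wild-type library 1, -0.978 without wild-type library 2, -0.818 without HDAC7-deficient library 1 and 0.748 without HDAC7-deficient library 2. In peaks found in a single list the shares were 6.44%, 1.63%, 4.18% and 1.72% in the same order, so libraries numbered 2 were below the 2.07% of all known bases there and above it in the shared regions. Against the broad shared regions the tract share under the peaks was higher in each library, by 0.989, 0.250, 0.900 and 0.342 percentage points, a mean of 0.620. The mean was 0.359 without HDAC7-deficient library 1 and 0.334 with a limit of 300 bp. In the centre windows the order was the reverse, with 7.91% of bases in tracts against 8.18% in the broad shared regions.

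Regions with and without a tract differed in CpG, in part by definition, since a tract cannot hold a CpG. Tracts took up 19.8% of the bases in the centre windows of regions with a tract. The 117074 regions with a tract held 1.31 CpG per centre window and 36.7% of these windows had none. The 178437 regions without a tract held 1.80 CpG per window and 27.2% had none, and all windows without a tract held 1.72. The smallest list measured 153 bp in the median in regions with a tract and 140 bp in those without. Tracts were found in 35.6% of the regions whose smallest list was under 50 bp, in 43.4% of those at 200 to 300 bp and in 40.8% of those at 300 to 400 bp, while CpG per window went from 1.73 to 1.52 and 1.57 over the same classes. These widths were part of the choice of regions and are given as a description.

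Simple repeats were not all alike (bars by number of lists). A CA repeat, at least 10 units of CA or TG, lay in 0.577% of the centre windows, against 2.03% of all windows and 0.363% of those of broad shared regions, and the share went from 0.800% with a peak in 3 lists to 1.41% in 2 and 1.78% in 1. A GA repeat of the same length, which is itself a purine tract, lay in 1.56% of the windows, against 0.906% of all windows and 0.598% of those of broad shared regions. GA repeats were more frequent than this with a peak in 3 lists (2.04%), 2 lists (2.70%) and 1 list (1.79%). CA-repeat bases made up 0.113% and 0.0754% of the peak bases in the wild-type pair and 0.0927% and 0.0730% in the HDAC7-deficient pair, against 0.395% of all known bases. The genotypes overlapped and the difference of -0.0114 percentage points did not exceed the spread of the libraries (two-sided exact permutation test, p = 0.667). Without wild-type library 1 it was 0.00742. Against the broad shared regions the CA-repeat share of peak bases was lower in all 4 libraries, with a mean difference of -0.0176 percentage points (exact sign-flip permutation test, p = 0.125), whereas the share of centre windows with a CA repeat was higher. The mean difference was -0.00703 without wild-type library 1, -0.0103 without HDAC7-deficient library 2 and -0.00442 with peaks within 100 bp merged. In the region with the longest CA repeat the peaks measured 145 and 315 bp in the wild-type pair and 218 and 250 bp in the HDAC7-deficient pair.

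**Figure D3:**
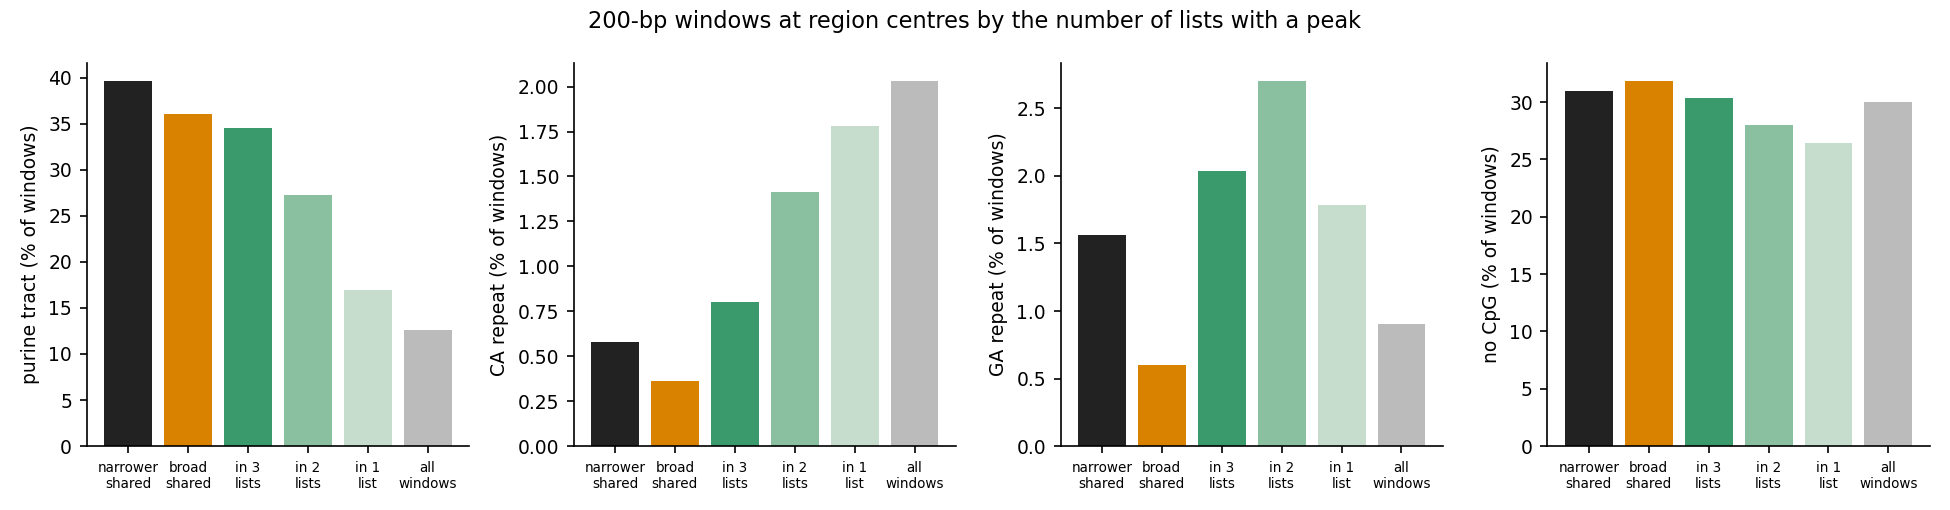
Share of 200-bp centre windows (y axes, %) with a purine tract, a CA repeat, a GA repeat or no CpG, for narrower shared regions, broad shared regions, regions with a peak in 3, 2 or 1 lists, and all windows of chromosomes 1 to 19. Purine tracts fall from 39.6% in the narrower shared regions to 17.0% with a peak in 1 list, while CA repeats go from 0.577% to 1.78%.

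Soft-masked sequence, which the reference writes in lower case because it was recognised as repetitive or of low complexity, made up 41.4% of the centre windows, against 33.5% of all windows. Under the peaks it made up 40.7% and 38.3% of the bases in the wild-type pair and 40.4% and 38.0% in the HDAC7-deficient pair, with overlap of the genotypes (difference -0.276 percentage points, two-sided exact permutation test, p = 0.667). The difference turned to 0.970 without wild-type library 1 and to 0.961 without HDAC7-deficient library 2. The broad shared regions held less of it in every library, and the narrower shared regions exceeded them by 2.79 to 4.11 and on average by 3.42 percentage points (exact sign-flip permutation test, p = 0.125). The average was 1.14 without wild-type library 1 and 5.21 with a limit of 500 bp. In centre windows of equal size the share was 41.4% in the narrower shared regions and 39.2% in the broad ones. These 7 tests on CpG, CA repeats and soft-masked bases gave Benjamini-Hochberg adjusted p-values of 0.292 for the 3 comparisons with broad regions and 0.667 for the other 4 (exact permutation tests). In regions with a tract 51.1% of the window was soft-masked, and in regions without one 35.0%. The 33.5% of all windows includes windows with a tract. The share in all windows without a tract is not given here.

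Short motifs of B-lineage factors were counted in the 200-bp centre windows on both strands (plot of motif ratios). GAGGAAGT, a site of the ETS factor PU.1 that directs myeloid and early B-cell fate, was present in 1.92% of the windows and in 1.20% of all windows, a ratio of 1.60. In windows without a purine tract its ratio was 1.65, with 1.95% against 1.18%. GAAANNGAA, an interferon regulatory factor (IRF) motif, was present in 13.7% against 7.83% of windows, a ratio of 1.74, and in windows without a tract the ratio was 1.22. Both motifs consist mostly of purines and can overlap a tract. CCCNNGGG, the core of the site of EBF1, which commits cells to the B lineage, was at 3.44% against 3.23%, and AGGGGGCGC, a core of the CTCF site, at 0.0447% against 0.0400%.

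Other motifs were less frequent than in all windows. CTATTTATA, a site of the MEF2 factors that recruit HDAC7, was present in 0.173% of the windows against 0.319%, a ratio of 0.543. The ratio was 0.708 for the AP-1 motif TGANTCA bound by Jun and Fos proteins, 0.735 for the FOXO motif GTAAACA and 0.819 for the E-box CAGCTG bound by E2A. The E-box CAGGTG and the RUNX motif TGTGGTTT had ratios of 0.971 and 0.930, which became 1.08 and 1.07 in windows without a tract. In the broad shared regions the ratios were 1.71 for PU.1, 1.73 for IRF, 0.535 for MEF2 and 0.698 for AP-1, close to those of the narrower shared regions. The MEF2 and FOXO motifs consist mostly of A and T. By frequency the words TATATA and ATATAT were at 0.529 and 0.544 times their level on the chromosomes. The centre windows had 44.1% GC against 41.9% in all windows. No comparison at equal base composition was made. A match is a string in a window and was not tied to binding.

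**Figure D4:**
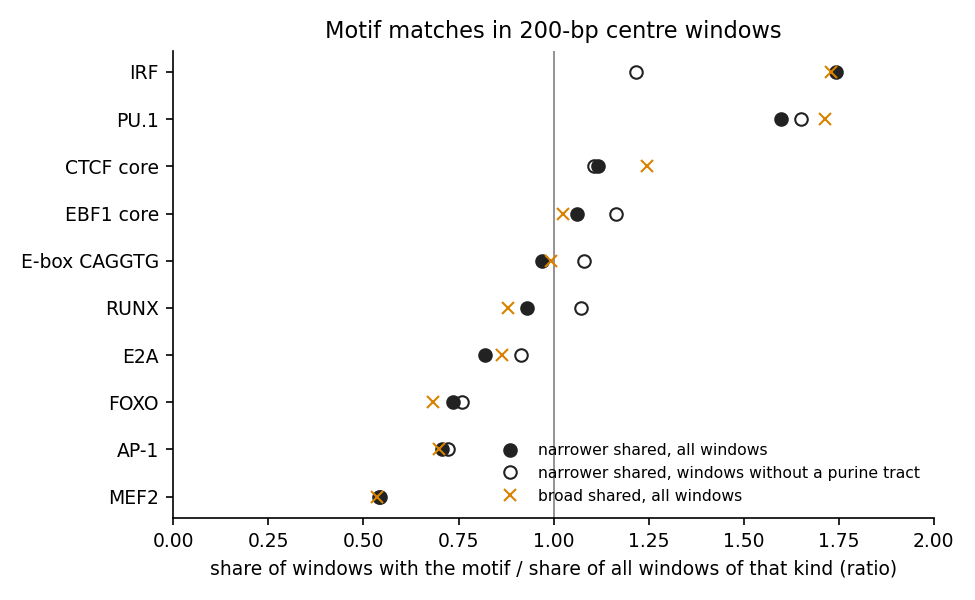
Ratio of the share of 200-bp centre windows with a motif to the share of all windows of chromosomes 1 to 19 (x axis); filled circles are narrower shared regions, open circles narrower shared regions without a purine tract against all windows without a tract, and crosses broad shared regions. IRF and PU.1 lie at 1.74 and 1.60 and MEF2 at 0.543.

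The narrower shared regions fell in introns, promoters and intergenic DNA nearly as the bases of the genome do, with smaller shares in exons. By the midpoint of the region, 51.6% were intergenic and 41.5% intronic, against 50.3% and 41.7% of the known bases. Promoters, taken as the 1000 bp before and 100 bp after an annotated start, held 11022 regions (3.73%), against 3.73% of the bases. Coding exons held 0.858% of the regions against 1.25% of the bases, and untranslated exons 0.969% against 1.38%. In the broad shared regions the promoter share was 3.86% and the coding exon share 1.02%. Around the starts of 20807 protein-coding genes the density was 0.821 times the mean of the chromosomes in the 250 bp on either side of the start and 1.10 times in the bin centred 375 bp upstream. The broad shared regions fell to 0.426 times just upstream of the start.

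The 4 regions with the most CpG in a core of 100 to 300 bp held 26 or 27 CpG, and 3 of them overlapped an untranslated exon at the promoter of a coding gene. The region at Rbfox2, an RNA-binding splicing factor, lay at chr15:77306892-77307422 and carried 426 and 507 bp in the wild-type pair and 339 and 427 bp in the HDAC7-deficient pair. The region at the zinc finger gene Zfp961, chr8:71950957-71951439, carried 412, 458, 271 and 368 bp, and the lower wild-type value exceeded the higher HDAC7-deficient value by 44 bp. Of all regions in 4 lists, 17.8% were likewise wider in both wild-type libraries. The median gap among such narrower shared regions was 54 bp. The region at Dis3l, an exoribonuclease gene, at chr9:64340650-64341032, carried 353, 299, 356 and 362 bp.

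Along the chromosomes the regions were spread widely. Chromosomes 1 to 13 held 114 to 125 regions per Mb and chromosomes 14 to 19 held 121 to 141. Without HDAC7-deficient library 2, which had more peaks on chromosomes 14 to 19, regions shared by the remaining lists numbered 165 per Mb on chromosomes 1 to 13 and 164 on chromosomes 14 to 19, against 121 and 132 with it. A window of 1 Mb held 123 regions in the median, with 112 and 136 at the quartiles. The densest, chr11:69000001-70000000, held 203, and chr7:21000001-22000000 held none. Across the 2376 windows the count went with GC content at a Spearman's rho of 0.341, a description only. Neighbouring regions lay 4966 bp apart in the median.

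Of the protein-coding genes 15520 (74.6%) held the midpoint of at least 1 narrower shared region. Genes of at least 20 kb held 1.16 regions per 10 kb in the median, with quartiles of 0.834 and 1.51, against 1.23 per 10 kb over the chromosomes. The genes with the most regions were long ones by their annotated span: Gm20388 with 585, the growth factor receptor gene Fgfr2 with 337, and the neuronal adhesion and synapse genes Lsamp with 290, Cntnap2 with 233 and Dlg2 with 232. The spans of Gm20388 and Fgfr2 were 4434882 and 2960900 bp. Such a span can take in other genes, as that of Gm20388 does Irf8, so the count is not of 1 gene alone. Per 10 kb these genes held 1.04 to 1.32 regions, near the value over the chromosomes. Per length, Bckdha, which encodes a subunit of the branched-chain ketoacid dehydrogenase, led the genes of at least 20 kb with 5.17 regions per 10 kb. It was followed by the sodium channel gene Scnn1a with 4.53, the sterol transporter gene Abcg5 with 4.44, the T-cell kinase gene Zap70 with 4.28 and the microtubule protein gene Map1a with 4.24.

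Among B-lineage transcription factor genes, all 14 held at least 1 narrower shared region and the median was 1.69 per 10 kb. The medians of the other lists were 2.45 (pre-B cell receptor), 1.24 (V(D)J), 0.820 (IL-7), 0.961 (DNA methylation), 1.42 (class IIa HDACs, MEF2 and corepressors), 1.27 (myeloid and AP-1) and 1.61 (T-lineage). A median gives short genes the same weight as long ones. Pooled over the gene lengths of a list, densities lay closer together, from 1.25 (IL-7) to 1.66 (myeloid and AP-1). The pooled density was 1.64 in the pre-B cell receptor list and 1.29 in the DNA methylation list. Every list lay above the 1.23 per 10 kb of the chromosomes when pooled, but several only slightly. The IL-7 list was at 1.25, the class IIa HDAC list at 1.26, the V(D)J list at 1.27 and the DNA methylation list at 1.29. The medians of the IL-7 and DNA methylation lists lay below 1.23. A pooled density over all protein-coding genes is not given here, so this order is a description only. Of the B-lineage factor genes, Tcf3, which encodes E2A, had the highest density with 2.49 per 10 kb (6 regions). Irf4 had the lowest with 0.563 (1 region). The regions of Tcf3 summed to 1692 and 1119 bp of peak in the wild-type pair and 1443 and 2325 bp in the HDAC7-deficient pair, with overlap of the genotypes. Of the 11 pre-B cell receptor and surface protein genes on these chromosomes 9 held a region. Cd79a, the receptor's signalling subunit and the gene that carries the Cre, reached 6.23 per 10 kb with 3 regions, which summed to 1089, 295, 637 and 1145 bp. Cd79b and Vpreb2 held none, and both are under 4 kb long.

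In the V(D)J recombination list all 10 genes held a region, from 0.891 per 10 kb in Rag1 to 2.56 in Rag2, the genes of the recombinase. The single region in Rag1 carried 269 and 339 bp in the wild-type pair and 199 and 20 bp in the HDAC7-deficient pair. The genotypes did not overlap there, and 17.8% of all regions in 4 lists were likewise wider in both wild-type libraries. In the IL-7 signalling list 7 of 9 genes held a region, with the highest density at the survival gene Bcl2 (1.59 per 10 kb, 28 regions) and none in Mcl1 and Socs1. Among DNA methylation and demethylation genes the density ran from 0.477 per 10 kb in the thymine DNA glycosylase gene Tdg to 2.98 in Uhrf1, which guides maintenance methylation. Tet2 held 5 regions, 0.614 per 10 kb, which summed to 1645 and 1865 bp in the wild-type pair and 1336 and 1582 bp in the HDAC7-deficient pair. Both HDAC7-deficient sums were below both wild-type sums at Tet2, but only 1 of its 5 regions was itself wider in both wild-type libraries. The share of all genes whose sums separate in this way is not given here, so the order at Tet2 is a description only.

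Hdac7 itself held 15 narrower shared regions, 2.89 per 10 kb and the most in the list of class IIa HDACs, MEF2 and corepressors, in which Hdac9 was lowest with 1.09. Its regions summed to 4706 and 3924 bp in the wild-type pair and 3341 and 4176 bp in the HDAC7-deficient pair, with overlap. A list of peak positions cannot show whether the floxed exons were lost, so the deletion was not checked here. In the list of myeloid and AP-1 genes, Mpo, the granule enzyme myeloperoxidase, led with 2.77 per 10 kb. Cd69, Cebpa, Cebpb, Fos and Jun, all under 10 kb long, held none. The single region in Fosb carried 334, 83, 446 and 294 bp in the order wild-type 1, wild-type 2, HDAC7-deficient 1 and HDAC7-deficient 2. In the T-lineage list Zap70 was highest and Notch1 lowest with 0.681 per 10 kb.

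In 37866 narrower shared regions (12.8%) both HDAC7-deficient libraries had more peak than both wild-type libraries, and in 52805 regions (17.9%) both wild-type libraries had more. Over all regions in 4 lists, of which the narrower ones make up 95.5%, the shares were 12.8% and 17.8%. In the broad shared regions they were 12.8% and 16.9%. After each width was divided by the library's median width, the counts were 46350 and 47694. The median gap was 51 bp in the regions wider without HDAC7 and 54 bp in those wider in wild-type cells. Promoters held 3.73% of the former and 3.84% of the latter, and purine tracts were in 37.1% and 42.6% of their windows. These counts are a description of widths that chose the regions.

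The largest gap in favour of the HDAC7-deficient libraries lay in an intron of Blnk, which encodes an adaptor that couples the pre-B cell receptor to its signalling pathway. The region, chr19:40989541-40991820, carried 212 and 414 bp in the wild-type pair and 1679 and 1571 bp in the HDAC7-deficient pair, a gap of 1157 bp, and no base lay under all 4 lists. The next 3 regions were intergenic on chromosome 5, chr5:127576088-127577470 with 12, 40, 876 and 1383 bp, in an intron of the transporter gene Slc29a4, chr5:142706267-142707749 with 51, 377, 1197 and 1245 bp, and intergenic on chromosome 1, chr1:81430294-81431517 with 228, 68, 1033 and 1050 bp. None of the 4 had a core. With the groups fully apart in each, they are the extremes of 295511 regions, picked for that gap.

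The largest reverse gap, 1023 bp, was intergenic at chr7:31006920-31008387, where the wild-type pair carried 1212 and 1192 bp and the HDAC7-deficient pair 169 and 80 bp. The next were in an intron of the dynein gene Dnah14, chr1:181638694-181640350, with 1544, 1411, 596 and 366 bp. An intergenic region, chr2:44404062-44405379, followed with 966, 1141, 235 and 109 bp. The last lay in an intron of Hif3a, a hypoxia-inducible factor gene, at chr7:17041489-17042863, with 1135, 1088, 375 and 302 bp. The regions on chromosome 2 and at Hif3a had cores of 24 and 74 bp, and the others had none.

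By gene list, the share of regions wider in both wild-type libraries ran from 10.5% (12 of 114) in the V(D)J recombination genes to 33.3% (16 of 48) in the myeloid and AP-1 genes, against the 17.8% of all regions in 4 lists. The share wider in both HDAC7-deficient libraries ran from 5.88% in the pre-B cell receptor list to 15.4% in the B-lineage factor list. Over all regions in 4 lists it was 12.8%. In the myeloid and AP-1 list it was 10.4% (5 of 48). Ahnak, a scaffold protein gene, held 7 of the 16 regions wider in both wild-type libraries and Itgam, the integrin subunit CD11b, held 4. The 18 regions of Ahnak summed to 7008 and 6256 bp in the wild-type pair and 4726 and 6046 bp in the HDAC7-deficient pair. The genotypes did not overlap in these sums, but the 2 libraries numbered 2 lay close, at 6256 and 6046 bp. The sums were not divided by the library's median width, and no share of genes with separate sums is given here. In the T-lineage list 23 of 84 regions were wider in both wild-type libraries and 7 in both HDAC7-deficient libraries. Themis, a regulator of thymocyte selection, held 8 of the 23, and its 21 regions summed to 6569, 7967, 5245 and 5884 bp. In B-lineage transcription factor genes the counts were 38 and 36 of 234. The wild-type count was 48 of 216 and the HDAC7-deficient count 20 in the list of class IIa HDACs, MEF2 and corepressors, a share of 22.2% and 9.26%. They were 8 and 3 of 51 in the pre-B cell receptor list, 11 and 7 of 58 in the IL-7 list and 11 and 10 of 74 in the DNA methylation list, and 16 of the 114 V(D)J regions were wider in both HDAC7-deficient libraries. With widths divided by the library's median, the wild-type and HDAC7-deficient counts were 15 and 6 in the myeloid and AP-1 list, 21 and 9 in the T-lineage list, and 34 and 39 in the B-lineage factor list. They were 45 and 23 (class IIa HDACs, MEF2 and corepressors), 10 and 16 (V(D)J), 8 and 3 (pre-B cell receptor), 11 and 8 (IL-7) and 9 and 10 (DNA methylation). Over all 295511 narrower shared regions these scaled counts were 47694 and 46350, nearer to each other than the unscaled ones. Regions of 1 gene share their surroundings and are not replicates, and no test was made of these counts.

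**Figure D5:**
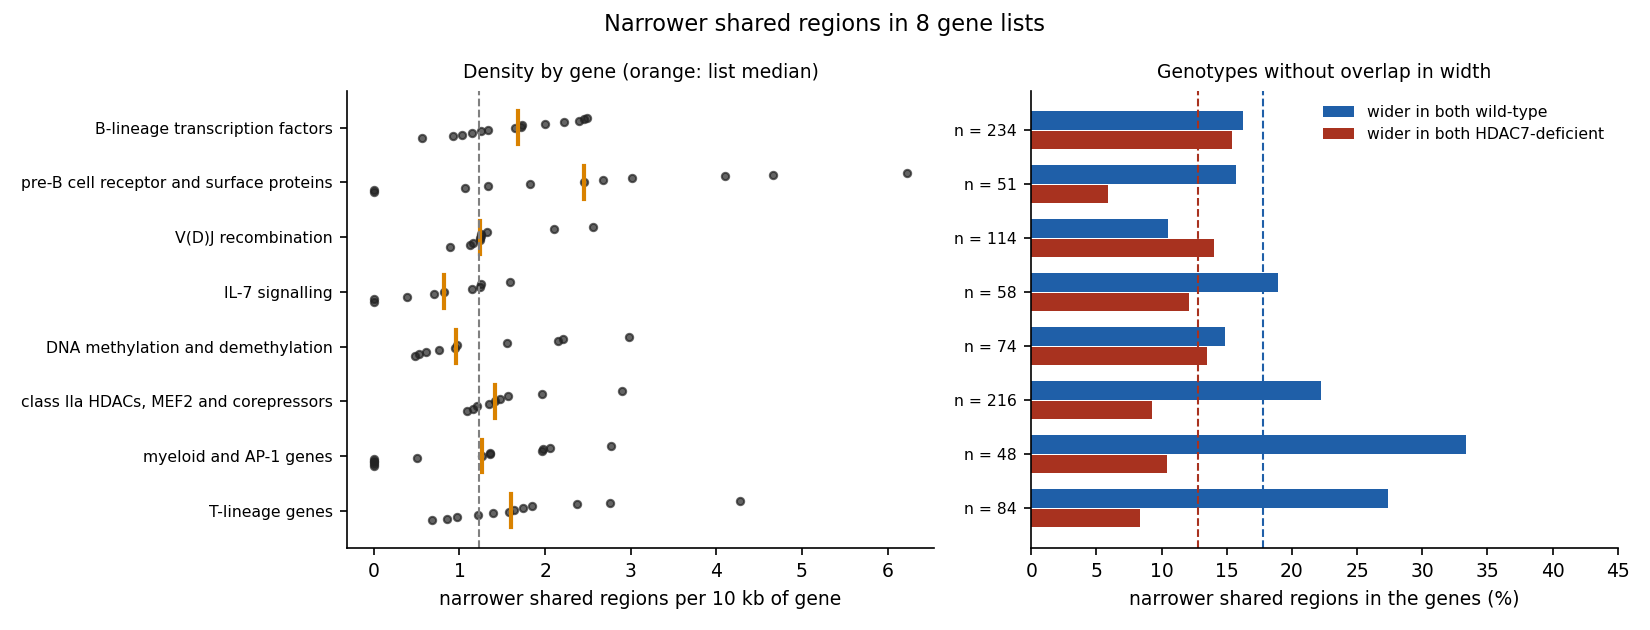
Left, narrower shared regions per 10 kb of gene body (x axis) for each gene of 8 lists, 1 point per gene, with the list median as an orange line and the mean of the chromosomes, 1.23, dashed. Right, share of the regions in each list (x axis, %) that were wider in both wild-type libraries (blue) or both HDAC7-deficient libraries (red), with the shares of all regions in 4 lists, 17.8% and 12.8%, dashed and n the number of regions; the myeloid and AP-1 list reaches 33.3% for wild-type.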

How the data were processed

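Pro-B cell hMeDIP-seq peak lists were analysed for 2 wild-type and 2 HDAC7-deficient libraries. Per the study's methods and the submitters' processing notes, reads were trimmed (cutadapt 1.6, run by Trim Galore 0.4.2) and aligned to mm10 (the notes name Bowtie2, the methods bwa). The authors called peaks in each library with MACS2 from the signal track and dropped those that overlapped an input peak. The deposited files hold chromosome, start and end only, with no score, count or coverage, so depth is unknown and no counting interval can be given.

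Peaks were merged with Python 3.11.15 scripts (numpy 2.4.6, pandas 2.3.3), and merging, repeat, tract and motif counts were checked on simulated data. Sequence came from the soft-masked GRCm38 assembly and gene models from GENCODE M21. Sequence values were computed once per library and compared by exact permutation tests, 2 libraries against 2 or sign flips over 4 libraries. These p-values measure only the spread between these libraries, which may be technical. The libraries share the regions, so the 4 differences of a sign-flip test are not independent. The regions named were those with the most CpG, the longest CA repeat, the widest core or the largest gap in width between genotypes, the first without CpG, and the first on either side of the limit. The genes named were the highest and lowest per list, the 5 with most regions and the 5 densest of at least 20 kb, with Jun, Fosb, Hdac7 and Tet2. Blnk, Ahnak, Itgam, Themis, Cd79b, Vpreb2, Cd69, Cebpa, Cebpb and Fos were named after their values were seen. The regions, gene lists and motifs were chosen with earlier results on these data known, and purine tracts after the 6-base words were counted.

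Alternatives were width limits of 300 and 500 bp, peaks within 100 bp merged, peaks of at least 50 bp, chromosomes 1 to 13, each library left out, a replicate block, other repeat lengths, promoters and windows. The study's own differential analysis used reads and was not repeated. The 4 input libraries were not used here. Some of the regions chosen by the naming rule are not reported here.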

Additional observations from a re-analysis of the deposited data

How the results depend on the processing

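The number of narrower shared regions was 295511 and ranged from 250210 with peaks of at least 50 bp to 315659 with peaks within 100 bp merged over the same chromosomes, was 222064 on chromosomes 1 to 13 alone, and ran from 348793 to 432958 when 1 library was left out. Their promoter share of 3.73% ran from 3.61% to 3.82% with 1 library left out and was 7.87% with promoters of 2000 bp before and 500 bp after the start. The comparisons of CpG density, soft-masked bases and CA repeats with broad shared regions kept their direction in every alternative run, width limits, merging, peak width, chromosomes 1 to 13, leave-one-out and, for CA repeats, shorter runs included. Their sizes did not hold. With 1 library left out the CpG difference ran from -0.0396 to -0.0152 per 100 bp, the soft-masked difference from 1.14 to 3.64 and the CA-repeat difference from -0.0233 to -0.00703 percentage points, and wild-type library 1 gave the smallest value of each. Over the limits of 300 and 500 bp the CpG difference ran from -0.0651 to -0.0238 and the soft-masked difference from 2.30 to 5.21. The soft-masked difference was 2.28 and the CA-repeat difference -0.00442 with peaks within 100 bp merged, and the CA-repeat difference was -0.0113 on chromosomes 1 to 13 and -0.122 with runs of at least 6 units. The genotype differences changed sign when a library was left out, which shows that single libraries decided their direction. Without wild-type replicate 1 the soft-masked difference was 0.970 percentage points and the CA-repeat difference 0.00742, and without HDAC7-deficient replicate 2 the soft-masked difference was 0.961 and the CpG difference 0.00362 per 100 bp. Over the 4 leave-one-out settings they ran from -1.48 to 0.970 (soft-masked), -0.0271 to 0.00742 (CA repeats) and -0.00883 to 0.00362 (CpG). Against regions in all but 1 list the CpG difference was negative in each leave-one-out setting, from -0.0469 to -0.00462 (the number of lists differs there too by construction). The replicate block left these differences at -0.00356, -0.276 and -0.0114, since the design is balanced, and p was 0.5 for each in the exact sign-flip permutation test, the smallest 2 pairs allow. Nothing says that a shared number pairs the libraries.

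The tract share of narrower minus broad regions was 0.620 percentage points and became 0.334 with a limit of 300 bp, 1.14 with 500 bp and 1.11 with tracts of at least 10 bases, and it ran from 0.359 to 0.655 with 1 library left out. All values for tracts were chosen after seeing the data. The genotype difference in tracts was -0.0497, the same as the mean under the replicate block, where the numbered pairs had opposite signs (-0.251 and 0.151). It was 0.0151 with tracts of at least 10 bases, and it ran from -0.978 without wild-type replicate 2 to 0.915 without wild-type replicate 1. With a gap of at least 50 bp, 19424 regions were wider in both HDAC7-deficient libraries and 28104 in both wild-type libraries. In windows without a tract the ratios of the E-box CAGGTG and RUNX motifs moved above 1, to 1.08 and 1.07. No ratio crossed 1 with 300-bp windows. Unknown depth and 2 libraries per genotype limit each statement, and no test here could have reached 0.05.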
